A study of Mus musculus with 6 samples.

Results

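The genes described here encode the heat shock protein, DnaJ and CCT chaperone families of the mouse, read in bone marrow progenitors that lacked c-Myc and N-Myc and in progenitors that kept both genes. Members were taken by symbol: every gene whose probe sets carried 1 annotated symbol and whose symbol began with Hsp followed by a digit or by a, b, d, e or h, with Dnaja, Dnajb or Dnajc and a digit, or with Cct and a digit from the ring subunits, plus Tcp1. The rule used no measured difference. It gave 201 probe sets, and each gene was read from its brightest probe set (by the mean of the 6 arrays), leaving 82 member genes of 18193 genes in all. By family, 14 members were HSP70 or HSP110 proteins, 2 were HSP90 proteins, 2 formed the mitochondrial chaperonin, 8 were small heat shock proteins, 4 were DNAJA, 13 DNAJB and 27 DNAJC proteins, 10 carried CCT names, and 2 (Hspbp1 and Hspbap1) are named for binding heat shock proteins.

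The study hybridised RNA of sorted cells to Affymetrix mouse expression arrays, 3 for each group, with each array made from a separate pool of mice. The double-knockout (dKO) pools held 3 mice each, of the genotype MxCre c-myc f2 N-myc f2, in which both Myc genes are flanked by loxP sites and the Cre recombinase is driven by the interferon-inducible Mx promoter. The Control pools held 2 mice each, with the same floxed c-myc and N-myc alleles and no MxCre. Mice of both groups were on a mixed background, were 8 weeks old and received 2 daily injections of pI-pC (the interferon inducer polyinosinic-polycytidylic acid), the last of them 3 days before they were killed. The cells were sorted as Lin-Sca1+CD150+CD48+ from bone marrow. Kit was not part of the sort as the labels write it, and the tissue label of Control 1 calls the cells LT-HSCs while giving the same gate. MxCre was present in the dKO mice only, so an effect of the transgene and of the loss of the Myc genes cannot be told apart. Errors marked SD below describe the spread between pools, and the other errors are standard errors (SE) of the limma fit. That fit draws the variance of each gene toward a value shared by all genes. Such an SE is therefore not the spread of that gene's own pools alone.

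Chaperones bind proteins that are not yet folded, or that have lost their fold, and keep them from aggregating. HSP70 proteins do so in cycles of ATP hydrolysis that DnaJ proteins start, HSP90 proteins act late on signalling proteins, HSP110 proteins exchange the nucleotide of HSP70, and the CCT and HSP60 chaperonins enclose a substrate in a ring. Some members are present in every cell at all times, some follow the heat shock factor HSF1, and those of the endoplasmic reticulum follow the unfolded protein response. c-Myc and N-Myc are transcription factors that bind E-box sequences and are known for raising the output of genes for ribosomes, mitochondria and growth.

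The values are log2 RMA values as deposited, and log2 fold changes are dKO minus Control. The array medians over the probe sets lay between 5.91 and 5.94. Myc read 7.99, 7.87 and 7.44 in the dKO pools against 10.79, 10.95 and 10.47 in the Control pools, a log2 fold change of -2.97 ± 0.22 (SE). The probe set of Mycn with the highest Control values had a log2 fold change of -5.27 ± 0.34, while the other Mycn probe sets gave -0.83 and 0.34 (limma adjusted p = 0.18 and 0.43 over all probe sets). The interquartile range of array dKO 3 was 3.04, against 3.32 to 3.46 in the other arrays, and Xist, expressed from the inactive X of females, was high in dKO 1 and Control 1 (10.50 and 9.10) and between 5.03 and 5.86 in the other 4. Markers of other cell types also moved with the groups. In the dKO pools 9 of 14 measured T and NK cell markers, 5 of 11 megakaryocyte and platelet markers, 5 of 9 mast cell and basophil markers and 2 of 9 erythroid markers passed as higher, while 4 of 12 granulocyte and monocyte markers, 4 of 12 B and lymphoid markers and 1 erythroid marker passed as lower. Over all genes, 3.12% passed as higher and 2.85% as lower. The calls with the smallest p were Nkg7, Il2rb, Klrk1, Gata3, Cd2 and Ncr1 among T and NK cell markers (1.25 to 1.94), Selp, Ppbp, Itgb3, Pf4 and Itga2b among megakaryocyte markers (1.51 to 4.87), Cma1, Mcpt8, Fcer1a, Cpa3 and Gata2 among mast cell markers (1.34 to 2.53), and Rhag and Alas2 among erythroid markers (1.57 and 1.29). Lower were Irf8, Csf1r, Lyz2 and Ccr2 (-2.44 to -0.89), Dntt, Flt3, Rag1 and Rag2 (-4.99 to -1.46), and Tfrc (-1.35). The summed level of the T and NK cell list lay between 12.83 and 13.33 (log2) in dKO and between 11.01 and 11.78 in Control, and that of the granulocyte and monocyte list between 11.14 and 12.49 in dKO and between 13.24 and 13.89 in Control. The summed level of the B and lymphoid list lay between 10.12 and 10.67 in dKO and between 11.76 and 12.25 in Control, and that of the megakaryocyte list between 13.27 and 13.53 in dKO and between 11.63 and 11.67 in Control. The mast cell list lay between 13.23 and 13.62 in dKO and between 12.23 and 12.47 in Control, and the erythroid list between 11.62 and 12.30 in dKO and between 12.14 and 12.26 in Control. None of the 4 measured genes of the gate and its companions (Slamf1, Cd48, Kit and Ptprc) passed, with log2 fold changes of 0.78, 0.20, -0.29 and -0.01. The part of cell composition in the results below was not tested, and in such bulk samples fewer cells of a type and less RNA per cell cannot be told apart.

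Few chaperone genes differed between the groups by the test, and those that did were HSP70 and DnaJ genes. Of the 82 members, 3 passed as higher in dKO (Dnajb2, Dnajb11 and Hspa13) and 1 as lower (Dnajc28), by limma with Benjamini-Hochberg adjustment over all 18193 genes at an adjusted p of 0.05 (two-sided). That was 4.88% of the members, against 5.97% of all genes, with 3.12% of all genes higher and 2.85% lower, so the members passed about as often as any gene. The median log2 fold change was 0.07 over the members and 0.05 over all genes, with 50 members positive and 32 negative. In 25 members (30.5%) the 3 dKO values and the 3 Control values did not overlap, against 23.4% of all genes. In 11 of them the dKO values lay above, where all genes had 12.7%, and in 14 below, where all genes had 10.7%. The mean over the 6 arrays was at least 6 for 64 members, and 18 lay below it, where RMA values understate differences.

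**Figure D1:**
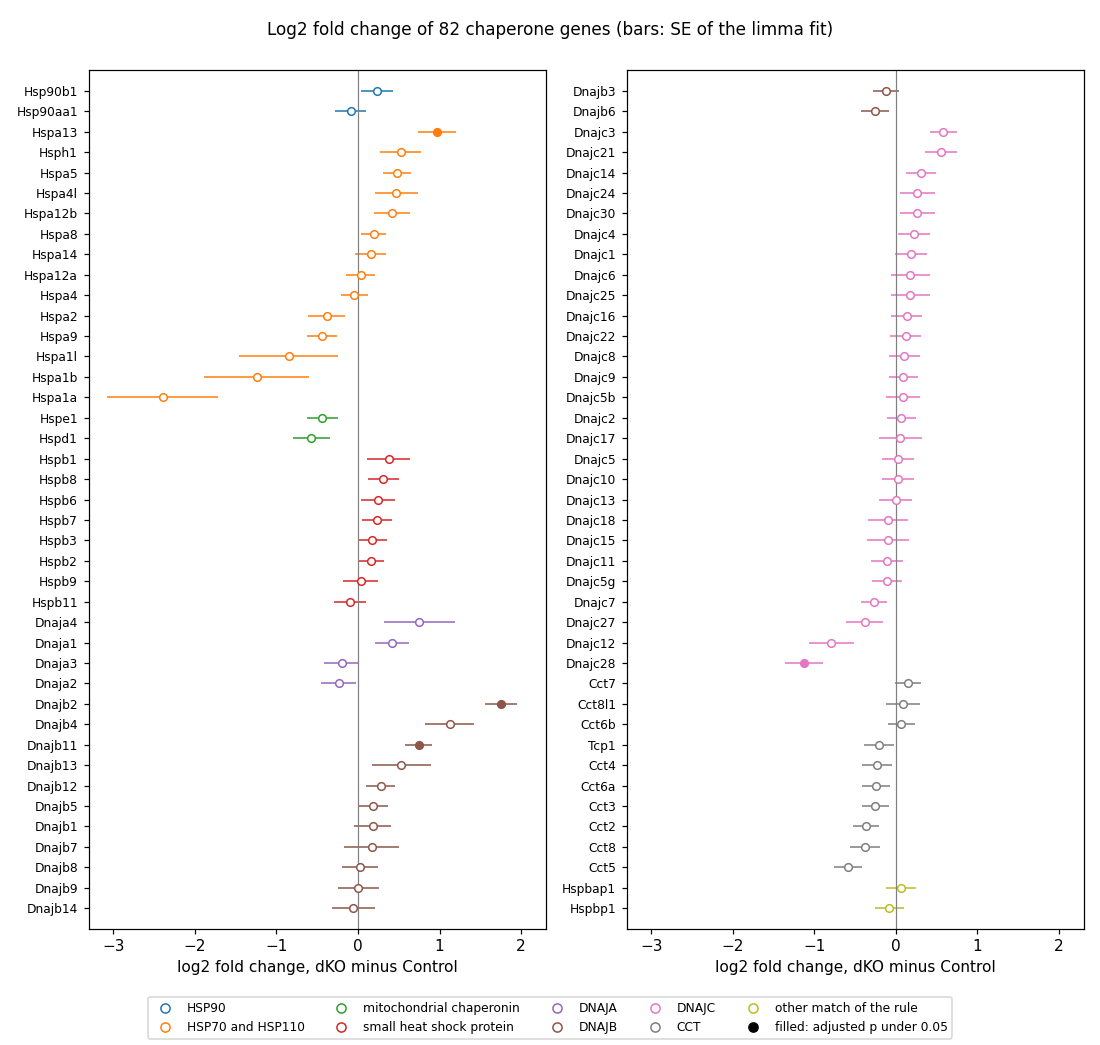
Log2 fold change (dKO minus Control, x axis) of each of the 82 members, in 2 columns arranged and coloured by family, with bars of the standard error from limma on 3 pools of mice per group. Filled points mark the 4 members past an adjusted p of 0.05, with Dnajb2 at 1.75 farthest to the right and Hspa1a at -2.39, which did not pass, farthest to the left.

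Dnajb2 showed the largest difference among the members that passed. It encodes a DnaJ protein that in humans binds ubiquitin and passes HSP70 clients to the proteasome, and is best known from neurons. Its level was 9.05, 8.92 and 8.50 in the dKO pools, against 7.20, 7.11 and 6.92 in the Control pools. Every dKO pool lay above every Control pool, with a gap of 1.30 (log2) between the nearest pools. The means were 8.83 ± 0.29 in dKO and 7.08 ± 0.14 in Control (SD, n = 3 pools each), a log2 fold change of 1.75 ± 0.20 or 3.36-fold, with an adjusted p of 0.0012 (limma). Dnajb2 was read by 1 probe set, and its adjusted p stayed below 0.01 with each array left out in turn (0.0019 to 0.0093).

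**Figure D2:**
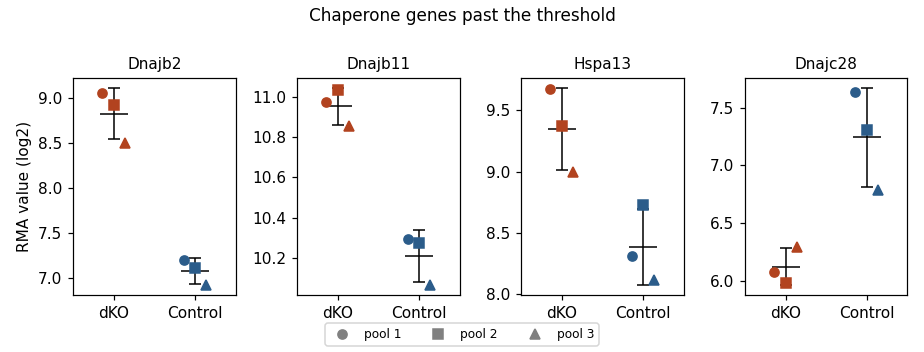
Deposited log2 RMA value (y axis) of the 4 members that passed, by pool, with the dKO pools left of the Control pools in each panel, a marker shape for each pool, long lines for the group means and bars for the SD (n = 3). Axes differ between panels and do not start at 0. The dKO points lie above the Control points for Dnajb2, Dnajb11 and Hspa13 and below them for Dnajc28.

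Of the members that passed as higher, 2 work inside the endoplasmic reticulum (ER). Dnajb11 (ERdj3), a soluble DnaJ protein of the ER lumen that delivers substrates to BiP, read 10.97, 11.03 and 10.85 in dKO against 10.29, 10.28 and 10.06 in Control. Its groups lay well apart, and its log2 fold change was 0.74 ± 0.17 (limma adjusted p = 0.031). Hspa13 (STCH), an HSP70 relative of the microsomes that lacks the substrate-binding domain, read 9.67, 9.38 and 8.998 in dKO against 8.31, 8.73 and 8.11 in Control. The groups did not overlap, though dKO 3 and Control 2 were only 0.27 apart, and the log2 fold change was 0.96 ± 0.23 (limma adjusted p = 0.044). With any array but dKO 3 left out, neither passed: the adjusted p of Dnajb11 was 0.077 to 0.15 and that of Hspa13 0.054 to 0.17. The log2 fold changes in those 5 settings were 0.67 to 0.78 for Dnajb11 and 0.80 to 1.14 for Hspa13, and over all genes the number higher was 331 to 400, against 567 with all arrays. The mean of the 4 Hspa13 probe sets gave 0.64 (adjusted p = 0.095), and single probe sets of the gene ranged from 0.39 to 0.96.

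The other members counted in the ER set below did not pass, and most had positive values. Hspa5 (BiP), the HSP70 of the ER lumen, read 12.15, 12.10 and 11.91 in dKO against 11.65, 11.64 and 11.44 in Control. All dKO pools were above all Control pools, by a log2 fold change of 0.48 ± 0.17 (limma adjusted p = 0.16, and 0.020 with a variance trend and robust estimation). Dnajc3 (p58IPK), a co-chaperone of BiP also known as an inhibitor of the kinase PKR, read 10.22, 10.36 and 10.12 in dKO against 9.73, 9.67 and 9.55 in Control. Its groups did not overlap either, and its log2 fold change was 0.58 ± 0.16 (limma adjusted p = 0.080, with 0.029 under the variance trend, 0.033 with array weights and 0.0499 among genes with a mean of at least 6). Hsp90b1 (GRP94), the ER HSP90, read 12.01, 12.26 and 11.78 in dKO against 12.02, 11.56 and 11.77 in Control, so its groups overlapped, and its log2 fold change was 0.23 ± 0.20. Dnajb12, a DnaJ protein anchored in the ER membrane, gave 7.54, 7.36 and 7.33 in dKO against 7.16, 7.32 and 6.91 in Control, a difference of 0.28 ± 0.18 in which dKO 3 was only just above Control 2. Dnajb9 (ERdj4), an ER protein that helps to remove misfolded proteins and is itself a target of the unfolded protein response, read 9.49, 9.63 and 8.69 in dKO against 9.24, 9.19 and 9.36 in Control. Its log2 fold change was 0.00 ± 0.25, with dKO 3 the lowest of the 6 pools.

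Counted together, 11 members were placed in an ER set (Hspa5, Hspa13, Hsp90b1, Dnajb9, Dnajb11, Dnajb12, Dnajb14, Dnajc1, Dnajc3, Dnajc10 and Dnajc14). The set may not hold every ER member. Dnajc16 and Dnajc18, for instance, were left out, and gave 0.13 and -0.10 with overlapping groups. This grouping was made after their values were seen, so it is a description with no test. Of the 11 genes in the set, 2 passed as higher (18.2%, against 3.12% of all genes) and 0 as lower. A positive log2 fold change was seen in 10, as in 10481 of the 18193 genes. In 6 all dKO pools lay above all Control pools (12.7% of all genes) and in 0 the reverse (10.7%), and the median was 0.28, against 0.05 over all genes. Among the 64 members in neither this set nor the mitochondrial set below, the median was 0.07.

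The promoters of 3 of these genes are shown because all 3 hold the ER stress element, the sequence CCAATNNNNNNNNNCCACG at which ATF6 acts with NF-Y. Each is given from 250 bases before to 50 bases after the RefSeq start site, on the gene's own strand, with the matches to the element in capitals. The windows come from RefSeq (GRCm38.p6): chr2:34771840-34772139 (plus strand) for Hspa5, chr14:118937682-118937981 (plus strand) for Dnajc3 and chr10:86705395-86705694 (minus strand) for Hsp90b1.
Hspa5: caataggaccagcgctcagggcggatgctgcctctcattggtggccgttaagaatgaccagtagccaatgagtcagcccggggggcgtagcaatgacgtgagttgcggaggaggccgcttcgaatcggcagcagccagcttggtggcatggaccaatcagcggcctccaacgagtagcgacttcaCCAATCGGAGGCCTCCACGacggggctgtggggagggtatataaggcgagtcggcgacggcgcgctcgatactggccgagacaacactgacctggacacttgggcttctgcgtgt
Dnajc3: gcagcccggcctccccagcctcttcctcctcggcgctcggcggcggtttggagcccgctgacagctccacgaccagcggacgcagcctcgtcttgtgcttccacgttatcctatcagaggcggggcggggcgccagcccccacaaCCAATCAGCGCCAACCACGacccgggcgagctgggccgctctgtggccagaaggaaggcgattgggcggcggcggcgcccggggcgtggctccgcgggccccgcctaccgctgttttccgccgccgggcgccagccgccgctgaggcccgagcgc
Hsp90b1: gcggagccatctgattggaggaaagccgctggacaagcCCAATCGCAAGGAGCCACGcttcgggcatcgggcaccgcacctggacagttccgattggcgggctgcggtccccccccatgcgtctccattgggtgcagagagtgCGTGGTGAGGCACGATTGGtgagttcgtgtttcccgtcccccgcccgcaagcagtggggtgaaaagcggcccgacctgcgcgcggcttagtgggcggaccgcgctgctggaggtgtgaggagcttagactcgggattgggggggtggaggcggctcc
The first match begins 65 bases before the start site in Hspa5, 105 before it in Dnajc3, and 212 and 107 before it in Hsp90b1. Of the 68 members with a promoter in the table, these 3 (4.41%) held the element on either strand, against 37 of 27025 genes (0.137%). This motif was chosen after the values were seen, and the 3 genes that hold it had log2 fold changes of 0.48, 0.58 and 0.23, none of which passed.

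The members counted in the mitochondrial set below had mostly negative values, and none of them passed. Hspd1 (HSP60), the ring of the mitochondrial chaperonin, read 11.13, 11.35 and 10.59 in dKO against 11.74, 11.41 and 11.63 in Control. Its highest dKO pool was 0.063 below the lowest Control pool, and its log2 fold change was -0.57 ± 0.22 (limma adjusted p = 0.21), or -0.36 without dKO 3. Hspe1 (HSP10), the lid of that ring, read 11.46, 11.39 and 10.96 in dKO against 11.83, 11.71 and 11.57 in Control. Its groups did not overlap, at -0.44 ± 0.19 (adjusted p = 0.27), or -0.28 without dKO 3. Hspa9 (mortalin), the HSP70 of the mitochondrial matrix that also pulls proteins through the inner membrane, read 10.45, 10.34 and 9.9998 in dKO against 10.76, 10.66 and 10.69 in Control, with a log2 fold change of -0.44 ± 0.18 (adjusted p = 0.23). Again all dKO pools were below all Control pools.

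The mitochondrial set of 7 genes (Hspd1, Hspe1, Hspa9, Dnaja3, Dnajc11, Dnajc15 and Dnajc30) was again drawn up after the values were seen. It may not be complete: Dnajc4 (0.22) and Dnajc28 (-1.13, which passed as lower), for instance, were left out. In the set 6 were negative, as were 7712 of the 18193 genes, and 3 had all dKO pools below all Control pools (10.7% of all genes). The median was -0.20, and -0.43 without dKO 2. Dnaja3 (Tid1), the DnaJ partner of Hspa9, read 8.31, 8.95 and 8.22 in dKO against 8.72, 8.70 and 8.66 in Control, with dKO 2 the highest of all pools. The only positive value was that of Dnajc30 (0.26 ± 0.22), a mitochondrial DnaJ protein tied to the respiratory chain.

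Hspd1 and Hspe1 are transcribed in opposite directions from 1 shared stretch of mouse chromosome 1. The Hspe1 window is shown because it covers most of that stretch. It lies at chr1:55087898-55088197 (GRCm38.p6, plus strand). This window shares 285 bases with 1 of the 2 Hspd1 windows, whose start site is 216 bases away. The other Hspd1 start site lies 95 bases inside Hspe1, so from that site the 2 genes overlap. Capitals mark the 3-unit heat shock element GAANNTTCNNGAA, which HSF1 binds, in 2 overlapping matches on opposite strands.
Hspe1: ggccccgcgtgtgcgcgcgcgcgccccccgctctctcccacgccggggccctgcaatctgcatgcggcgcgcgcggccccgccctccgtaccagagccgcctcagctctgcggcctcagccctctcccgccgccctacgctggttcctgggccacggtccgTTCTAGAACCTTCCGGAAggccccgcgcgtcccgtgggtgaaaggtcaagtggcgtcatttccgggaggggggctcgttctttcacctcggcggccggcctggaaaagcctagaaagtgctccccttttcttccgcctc
The matches run from 89 to 77 and from 84 to 72 bases before the Hspe1 start site. Among the members with a promoter, 4 (5.88%: Dnajb6, Hspd1, Hspe1 and Hsph1) held this 3-unit form, against 0.662% of all genes with a promoter. Their log2 fold changes had both signs, at -0.26 for Dnajb6, -0.57 for Hspd1, -0.44 for Hspe1 and 0.52 for Hsph1. The Hspe1 matches lie in the bases shared with the Hspd1 window, so the same site was counted for both genes.

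In the cytosol Hspa8, Hsp90aa1 and Hspa4 had small differences by their brightest probe sets. Hspa8 (HSC70), the HSP70 made in all cells, read 13.15, 13.13 and 13.11 in dKO against 12.98, 12.86 and 12.97 in Control. The groups did not overlap, but the log2 fold change was 0.19 ± 0.16 (limma adjusted p = 0.61). Of its other 3 probe sets, 2 gave 0.10 and 0.07, while the dimmest gave -0.71 ± 0.30 (adjusted p = 0.29 over all probe sets). Hsp90aa1, the inducible cytosolic HSP90, read 11.74, 12.04 and 11.50 in dKO against 11.95, 11.74 and 11.88 in Control, with a log2 fold change of -0.09 ± 0.19 and overlapping groups. Hsp90ab1, the other cytosolic HSP90, was not among the members and was not read here. Hspa4 (APG-2), a nucleotide exchange factor of the HSP110 branch, read 11.66, 11.56 and 11.33 in dKO against 11.58, 11.60 and 11.51 in Control, a difference of -0.05 ± 0.17.

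The relatives of Hspa4 had larger positive values. Hsph1 (HSP105), the heat-inducible HSP110 protein, read 10.97, 11.06 and 10.18 in dKO against 10.35, 10.24 and 10.06 in Control. Pools dKO 1 and dKO 2 were above all Control pools while dKO 3 was not, and the log2 fold change was 0.52 ± 0.25 (limma adjusted p = 0.31), or 0.80 (adjusted p = 0.035) without dKO 3. Hspa4l (APG-1) gave 0.47 ± 0.26, with the same pool low. Over all 14 HSP70 and HSP110 members, 1 passed as higher (Hspa13) and 0 as lower (3.12% and 2.85% of all genes). In 3 all dKO pools lay above the Control pools and in 3 below them (12.7% and 10.7% of all genes). The median of these members was 0.09, where all genes had 0.05. Averaging the probe sets of each gene gave 0.0013, and leaving out dKO 1 gave -0.0026.

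The heat-inducible HSP70 genes Hspa1a and Hspa1b had the most negative values, and 1 Control pool stood far above the others for both. Hspa1a, which encodes the classical stress-induced HSP70, read 4.77, 3.99 and 3.65 in dKO against 5.98, 5.22 and 8.40 in Control. It is 1 of the dim members, with a mean of 5.33 over the 6 arrays. Hspa1b, its neighbouring copy with a nearly identical sequence, read 7.07, 7.17 and 7.12 in dKO against 7.47, 7.38 and 10.24 in Control. All dKO pools were below all Control pools for both genes, and Control 3 was far above the rest. The log2 fold changes were -2.39 ± 0.68 for Hspa1a and -1.24 ± 0.64 for Hspa1b (limma adjusted p = 0.081 and 0.36). Control 3 exceeded the next highest pool by 2.78 for Hspa1b, or 6.85-fold, the largest such excess of that array among all 18193 genes, and by 2.42 for Hspa1a, the 4th largest. Against Control 1 and 2 alone, the dKO pools differed by -1.46 for Hspa1a (adjusted p = 0.072) and by -0.30 for Hspa1b (adjusted p = 0.62). Without Control 2 instead, Hspa1a gave -3.05 and passed (adjusted p = 0.045). Hspa1l, the third gene of this cluster, best known from the testis, read 5.26, 3.47 and 5.40 in dKO against 5.36, 4.56 and 6.76 in Control, again highest in Control 3. Hspa1l was dim too, with a mean of 5.14. Its groups overlapped, and without Control 3 its difference was -0.25.

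**Figure D3:**
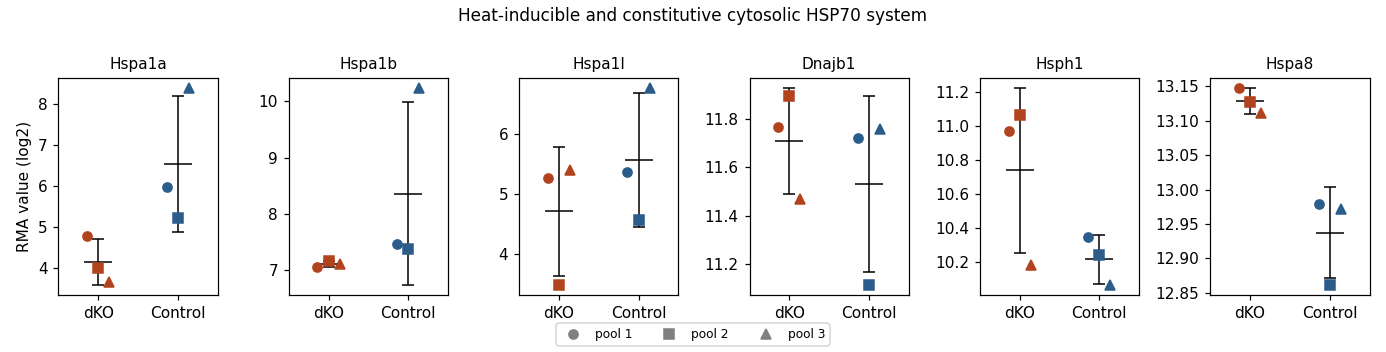
Deposited log2 RMA value (y axis) of Hspa1a, Hspa1b, Hspa1l, Dnajb1, Hsph1 and Hspa8 by pool, with the dKO pools left of the Control pools in each panel, a marker shape for each pool, long lines for the group means and bars for the SD (n = 3); axes differ between panels and do not start at 0. Control 3 (triangle) is the highest point for the first 3 genes only, at 8.40 for Hspa1a, 10.24 for Hspa1b and 6.76 for Hspa1l.

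Of the other heat-inducible members, Dnajb1, Hsph1 and Hspb1 did not stand out in Control 3. Dnajb1 (HSP40), the DnaJ partner of inducible HSP70, read 11.77, 11.89 and 11.47 in dKO against 11.72, 11.11 and 11.76 in Control, with Control 2 lowest and a log2 fold change of 0.18 ± 0.22. Hsph1 was at 10.06 in Control 3, the lowest of its 6 pools. Hspb1 (HSP27), a small heat shock protein, was at 5.36 there, also its lowest value, but it is dim, with a mean of 5.65. The dimmest probe set of Hspa8, which is made in all cells, was highest in Control 3, at 10.45. Its next highest pool was Control 1, at 9.78.

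The promoters of the Hspa1a and Hspa1b copies are shown because they are nearly the same. They lie at chr17:34972107-34972406 and chr17:34959189-34959488 (GRCm38.p6, both on the minus strand), and capitals mark the heat shock element pair GAANNTTC.
Hspa1a: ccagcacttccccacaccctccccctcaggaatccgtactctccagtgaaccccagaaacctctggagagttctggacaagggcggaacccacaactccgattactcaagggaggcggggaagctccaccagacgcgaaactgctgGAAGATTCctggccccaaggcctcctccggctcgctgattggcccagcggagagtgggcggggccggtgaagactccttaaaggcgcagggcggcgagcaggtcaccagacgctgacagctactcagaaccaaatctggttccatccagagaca
Hspa1b: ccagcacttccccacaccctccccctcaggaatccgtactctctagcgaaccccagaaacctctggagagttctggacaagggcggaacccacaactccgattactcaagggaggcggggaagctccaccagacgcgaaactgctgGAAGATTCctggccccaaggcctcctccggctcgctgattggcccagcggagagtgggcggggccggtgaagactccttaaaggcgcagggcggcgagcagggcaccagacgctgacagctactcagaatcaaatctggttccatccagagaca
The windows were identical at 296 of 300 positions (98.67%), and the pair begins 104 bases before the start site in both. The windows do not measure the likeness of the RNAs, and transcript and probe sequences were not compared here. As the genes are near copies, the signal of 1 may include RNA of the other. The probe sets therefore cannot be taken as fully separate measurements. Hspa1b had 3 probe sets, all negative, at -1.30 to -0.70. The brightest had a mean of 7.74, and the others were dim, at 5.44 and 4.39.

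Among the DNAJB members, which pair with HSP70 in the cytosol and ER, 2 of 13 passed as higher (Dnajb2 and Dnajb11) and 0 as lower. Over all genes 3.12% were higher and 2.85% lower. The DNAJB median was 0.18, against 0.05 over all genes. Dnajb4 (HLJ1), a close relative of Dnajb1, read 10.65, 10.52 and 9.88 in dKO against 9.67, 8.62 and 9.38 in Control. The groups did not overlap, with Control 2 low and dKO 3 near Control 1, and the log2 fold change was 1.13 ± 0.30 (limma adjusted p = 0.064). It passed with genes of a mean of at least 6 (0.038), with a variance trend (0.033), with array weights (0.020), and without dKO 3 (0.044) or Control 1 (0.047), and a second Dnajb4 probe set gave 1.13 (0.033 over all probe sets), while the dimmest probe set gave -0.46. Dnajb6, which holds back protein aggregation, read 10.42, 10.32 and 10.06 in dKO against 10.53, 10.64 and 10.40 in Control, a difference of -0.26 ± 0.18 with dKO 1 just above Control 3.

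The DNAJA members, the DnaJ proteins built most like the bacterial one, had 0 of 4 past the threshold and a median of 0.11, which was -0.057 without dKO 2 and 0.28 without dKO 3. Dnaja1 read 11.88, 11.90 and 11.31 in dKO against 11.40, 11.31 and 11.13 in Control, with dKO 1 and dKO 2 above all Control pools and a log2 fold change of 0.42 ± 0.21 (limma adjusted p = 0.34). Dnaja2 read 10.38, 10.61 and 9.90 in dKO against 10.62, 10.35 and 10.62 in Control, a difference of -0.24 ± 0.21. Dnaja4 varied most between pools, at 5.70, 7.48 and 6.41 in dKO against 6.12, 6.10 and 5.11 in Control. Its groups overlapped, and its log2 fold change was 0.75 ± 0.43 (adjusted p = 0.43, and 0.049 for the mean of its probe sets).

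The DNAJC members are the most mixed branch, joined by the J domain alone. Of 27, 0 passed as higher and 1 as lower (3.12% and 2.85% of all genes), and the median was 0.09. Dnajc28, a DnaJ protein whose function is little known, read 6.08, 5.98 and 6.30 in dKO against 7.64, 7.31 and 6.79 in Control. All dKO pools were lower, with Control 3 nearest to them, and the log2 fold change was -1.13 ± 0.23 (limma adjusted p = 0.022). The gene lies only a little above the dim range, its second probe set gave -0.73, and the call was lost with the mean of both (adjusted p = 0.064) and without dKO 1, dKO 2, Control 1 or Control 2 (0.069 to 0.091).

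Other DNAJC genes gave values that did not pass. Dnajc21, which acts in the maturation of the large ribosomal subunit, read 8.48, 8.15 and 8.10 in dKO against 7.90, 7.73 and 7.44 in Control. No dKO pool reached down to a Control pool, and the log2 fold change was 0.55 ± 0.19 (limma adjusted p = 0.16, and 0.0498 with array weights). Dnajc7 (TPR2), which binds both HSP70 and HSP90, read 10.31, 10.38 and 10.21 in dKO against 10.54, 10.62 and 10.55 in Control, lower in each dKO pool by a log2 fold change of -0.27 ± 0.16 (adjusted p = 0.43). Dnajc9, a histone chaperone, read 10.93, 10.82 and 10.67 in dKO against 10.87, 10.48 and 10.79 in Control, a difference of 0.09 ± 0.18 with overlapping groups. Dnajc2 (zuotin in yeast), a chaperone at the ribosome, read 10.82, 10.95 and 10.53 in dKO against 10.78, 10.72 and 10.61 in Control, a difference of 0.07 ± 0.18. Dnajc12 gave -0.79 ± 0.28 (adjusted p = 0.16) at values from 2.89 to 4.27, and passed only without Control 3 (adjusted p = 0.031).

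The small heat shock proteins hold unfolded proteins without using ATP. Of these 8 members 0 passed, 4 had a mean under 6, and the median was 0.20, against 0.05 over all genes. Without dKO 3 the median was 0.13, against 0.0008 over all genes. Hspb8, which works with Bag3 in the removal of aggregates, read 6.83, 6.70 and 7.24 in dKO against 6.53, 6.53 and 6.77 in Control by its brightest probe set, a difference of 0.31 ± 0.19 with overlapping groups. A second Hspb8 probe set gave 1.33 ± 0.29 (limma adjusted p = 0.045 over all probe sets), so the gene's call depended on the probe set. Hspb1 read 5.52, 5.52 and 6.49 in dKO against 5.51, 5.53 and 5.36 in Control, with dKO 3 alone high. Hspb11, which is also a component of the cilium, read 8.06, 8.35 and 7.83 in dKO against 8.40, 8.10 and 8.06 in Control, and Hspb6 gave 6.58, 6.69 and 7.08 in dKO against 6.45, 6.80 and 6.38 in Control. The log2 fold changes were 0.37 ± 0.26 for Hspb1, -0.10 ± 0.20 for Hspb11 and 0.24 ± 0.20 for Hspb6, each with overlapping groups.

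The CCT ring, the cytosolic chaperonin that folds actin and tubulin, had negative log2 fold changes at most of its subunits, and no subunit passed. Cct5 came nearest, at 9.95, 10.26 and 10.09 in dKO against 10.72, 10.60 and 10.73 in Control. The nearest pools of the groups were 0.35 apart, and the log2 fold change was -0.59 ± 0.17 (limma adjusted p = 0.081, and 0.021 with a variance trend and 0.029 with array weights). Cct2 read 11.58, 11.54 and 11.71 in dKO against 11.95, 12.04 and 11.95 in Control, a log2 fold change of -0.37 ± 0.16 (adjusted p = 0.26, and 0.045 with a variance trend). Tcp1, the alpha subunit, read 12.19, 12.27 and 11.80 in dKO against 12.28, 12.32 and 12.28 in Control, with dKO 1 and dKO 2 close to the Control pools and dKO 3 lower, at a difference of -0.21 ± 0.18. Cct7 was the exception, at 12.26, 12.37 and 12.15 in dKO against 12.08, 12.16 and 12.09 in Control, a difference of 0.15 ± 0.16.

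Of the 8 ring subunits, 7 had a negative log2 fold change and 6 (Cct2, Cct3, Cct5, Cct6a, Cct8 and Tcp1) had all dKO pools below all Control pools, at a median of -0.25. The groups did not overlap in the dKO-below direction for 10.7% of all genes, dim genes included. The ring's summed level lay between 14.33 and 14.49 (log2) in dKO and between 14.62 and 14.66 in Control. Of 15 CCT probe sets with a mean of at least 10, 14 were lower in dKO and 13 lay below all Control pools. Several of them read the same subunit on the same arrays, so they are not separate measurements. The share among all probe sets of that level was not counted. The testis gene Cct6b and the related Cct8l1, both dim, gave 0.07 and 0.09. Array dKO 3 entered these values: of 26 members with a mean of at least 10 it was the lowest dKO pool in 22 (84.6%), against 51.2% of 1237 genes of that level, and without it the median of all 10 CCT members was -0.13 instead of -0.24.

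**Figure D4:**
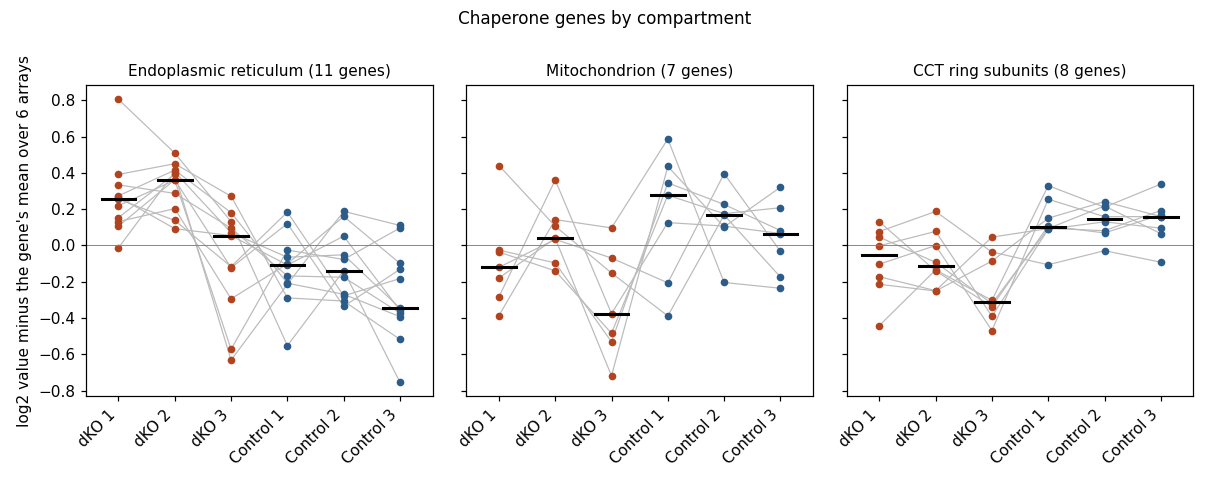
Log2 value of each gene minus its own mean over the 6 arrays (y axis), by pool with dKO left of Control. Panels show the 11 members counted in the endoplasmic reticulum, the 7 counted in the mitochondrion and the 8 CCT ring subunits. Grey lines join the values of 1 gene and black bars mark the median of a pool, which for the CCT subunits is -0.05, -0.11 and -0.31 in dKO against 0.10, 0.14 and 0.16 in Control, and for the endoplasmic reticulum is 0.25, 0.36 and 0.05 in dKO against -0.11, -0.14 and -0.35 in Control.

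Hspbp1, which releases nucleotide from HSP70, read 6.23, 6.19 and 6.57 in dKO against 6.42, 6.51 and 6.33 in Control, and Hspbap1, named for binding Hspb1, read 5.90, 5.81 and 6.12 in dKO against 5.63, 6.02 and 5.99 in Control. Both had overlapping groups, at log2 fold changes of -0.08 ± 0.18 and 0.06 ± 0.19.

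Partners of the families were taken from lists of other chaperone genes. Of 25 measured co-chaperones of HSP90 and HSP70, 0 passed, with a median of 0.00, and of 15 CCT cofactors and prefoldin subunits 0 passed, with a median of 0.05. Over all genes 5.97% passed. Among 15 mitochondrial chaperones and proteases, Atf5, a transcription factor of the mitochondrial stress response, passed as higher, at 8.05, 6.91 and 6.78 in dKO against 6.06, 6.03 and 5.93 in Control. Its log2 fold change was 1.24 ± 0.31 (limma adjusted p = 0.0496), and the call was lost without dKO 1, dKO 2 or any Control array (0.053 to 0.14), and with arrays centred on their median (0.053). The median of that list was -0.09. Of 14 measured heat shock factors and heat-inducible genes outside the families, 0 passed, with a median of 0.19. Hsf1 was not analysed here, and Hsf2 gave -0.48 ± 0.31.

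The ER list of other chaperones and unfolded protein response genes had 4 of 22 higher in dKO (18.2%, against 3.12% of all genes) and 0 lower, with a median of 0.15. All dKO pools lay above all Control pools in 7 of its genes (12.7% of all genes). They lay below them in 2, Atf6 and Ero1a (10.7% of all genes). Xbp1, the transcription factor that the sensor IRE1 activates, read 9.33, 9.63 and 9.39 in dKO against 7.97, 8.19 and 7.93 in Control. The nearest pools of the groups were 1.14 apart, with a log2 fold change of 1.42 ± 0.17 (limma adjusted p = 0.0018). Ddit3 (CHOP), a transcription factor of ER stress, gave 1.10 ± 0.20 (adjusted p = 0.012, and 0.051 without Control 3). Creld2 and Manf, secreted ER stress targets, gave 0.89 ± 0.19 and 0.75 ± 0.17 (adjusted p = 0.028 and 0.035). With 1 array left out, the Creld2 call was lost without dKO 1, dKO 2, Control 1 or Control 2 (0.082 to 0.11) and the Manf call without any of the 6 arrays (0.055 to 0.14). Hyou1, the HSP110 protein of the ER, read 9.83, 9.83 and 9.80 in dKO against 9.37, 9.63 and 9.16 in Control, a difference of 0.43 ± 0.18 that did not pass (adjusted p = 0.23). Atf6, the sensor that acts on the ER stress element, read 8.36, 8.47 and 8.56 in dKO against 9.27, 8.79 and 9.21 in Control, a difference of -0.62 ± 0.19 that did not pass either (limma adjusted p = 0.098).

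Immediate early genes, which respond to the handling of cells as well as to signals, also differed between the groups. Of 13, 4 passed as higher in dKO (30.8%, against 3.12% of all genes) and 0 as lower (2.85% of all genes), with a median of 0.63, and the summed level lay between 13.04 and 13.66 in dKO and between 12.49 and 12.99 in Control. Egr1 read 11.61, 10.98 and 11.21 in dKO against 7.06, 8.19 and 7.49 in Control, a log2 fold change of 3.68 ± 0.29 (limma adjusted p = 0.00022). Ier3, Atf3 and Egr2 gave 1.35, 1.95 and 2.43 (adjusted p = 0.0039, 0.0066 and 0.0095). Their part in the chaperone values was not tested.

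Promoter letters were also counted for the whole set of 68 members that matched the RefSeq table by symbol. A gene was counted when any of its windows held a match, and some genes, such as Hspd1, have more than 1 window. The heat shock element pair GAANNTTC stood in 16 (23.5%), against 9.04% of 27025 genes with a promoter, and TTCNNGAA in 8 (11.8%), against 9.60%. Hspa1a and Hspa1b, whose windows are nearly the same, are both among the 16. Hspd1 and Hspe1, whose windows share bases, are in both counts. The 2 pairs overlap each other inside the 3-unit element. The E-box CACGTG, bound by Myc with its partner Max, stood in 7 (10.3%: Dnajb9, Dnajc1, Dnajc16, Dnajc8, Hspbap1, Hspd1 and Hsph1), against 8.09%. None of these 7 passed, and 6 had positive log2 fold changes, as did 50 of the 82 members and 10481 of the 18193 genes. The positive values ran from 0.0044 for Dnajb9 to 0.52 for Hsph1, while Hspd1 had -0.57. The Hspd1 E-box lay in the window that shares 4 bases with the Hspe1 window, and not in the one that shares 285. All motifs were searched on both strands, and a match describes letters in a window of 300 bases.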

How the data were processed

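RNA of sorted bone marrow progenitors was extracted with Trizol, and a Nugen kit amplified it over 2 rounds before biotin labelling, per the labels' protocols. The authors deposited RMA output, on the log2 scale. The submitters' processing notes name RMA without a version, and whether all arrays were run jointly is not given in the sources here. Neither scanner files nor detection calls entered. RMA shrinks dim values, so their differences are understated. With 3 arrays per group, precision is limited by their number.

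Of 45101 probe sets, 64 were controls. Platform annotation gave 1 symbol to 34945, several to 932 and none to 9160, and 34741 were matched by gene identifier to RefSeq (GRCm38.p6) to update symbols. Columns of other samples numbered 0. Groups came from the sample titles. The comparison was made with lmFit and eBayes of limma 3.58.1 (R 4.3.3; default settings, two-sided) on the log2 values of all 18193 genes, with Benjamini-Hochberg adjustment and a threshold of 0.05, after a test on simulated data. Summed levels are log2 of the summed linear values. Summaries and figures used Python 3.11.15, pandas 2.3.3 and matplotlib 3.10.9.

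The members, lists and tests were chosen with earlier results of these data known. Values of every array were given for members past the threshold and, per family, for the 3 with the highest mean and the 2 with the smallest p that did not pass. Of each other list, up to 6 genes that passed, with the smallest p, were named. The grouping by compartment, the 3-unit heat shock element and the ER stress element were chosen after the values were seen. So were the items named beyond that rule: Atf6, Ero1a, Hyou1, Hsf2, Hspa9, Dnajb9, Hsph1, Hspa4l, Dnajc4, Dnajc12, Dnajc16, Dnajc18, Dnajc30, Hspa1b, Hspa1l and the Hspb8 probe set. Promoters came from RefSeq (GRCm38.p6) for 68 of the 82 members. Protein sequences were not used here. Alternatives varied the dim filter, the probe set per gene, the scaling, the threshold, the variance model, the weighting of arrays, a block for the replicate number and the arrays left out.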

Additional observations from a re-analysis of the deposited data

How the results depend on the processing

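Over all genes, 567 passed as higher and 519 as lower. Leaving out 1 array gave 331 to 617 higher and 236 to 464 lower, leaving out dKO 1 and Control 1 (the pools with high Xist) 303 and 275, a threshold of 0.01 256 and 181, a threshold of 0.1 819 lower, and array weights 849 lower. Among the members, 3 passed as higher and 1 as lower. The number higher was 5 among genes with a mean of at least 6, 6 with a variance trend and robust estimation, 6 with array weights, 5 with every probe set on its own, 1 without dKO 1 and Control 1, 5 and 1 at thresholds of 0.1 and 0.01, and 1 to 5 with 1 array left out. The number lower was 0 with the mean of probe sets, 3 with the variance trend, 2 with array weights, 0 without dKO 1 and Control 1, 3 and 0 at thresholds of 0.1 and 0.01, and 0 to 2 with 1 array left out. Median log2 fold changes moved as follows. The CCT median was -0.17 with the mean of probe sets, -0.15 with array weights, -0.31 without dKO 1 and Control 1, and -0.30 to -0.13 with 1 array left out. With 1 array left out, HSP70 and HSP110 ran from -0.0026 to 0.17, HSP90 from -0.062 to 0.19, DNAJA from -0.057 to 0.28, DNAJB from 0.087 to 0.29, DNAJC from 0.014 to 0.098, the mitochondrial members from -0.43 to -0.11, CCT cofactors from -0.037 to 0.10, co-chaperones from -0.063 to 0.024, mitochondrial chaperones and proteases from -0.16 to -0.034, and the ER list from 0.0898 to 0.28. Without dKO 1 and Control 1 the HSP70 and HSP110 median was -0.021. The mean of probe sets gave 0.0013 for HSP70 and HSP110, -0.082 for co-chaperones and -0.16 for mitochondrial chaperones and proteases, quantile normalization 0.028 for co-chaperones, and leaving out probe sets marked _x_at or _s_at -0.21 for mitochondrial chaperones and proteases. The causes were not tested. No called member reversed. Of 1363 pairs of an uncalled member and an alternative, 72 changed sign, in 30 members. Over all genes the median shifted between 0.00 and 0.09.

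The correlations of the deviations of same-numbered pools were 0.056, -0.00045 and 0.019, and the labels give the numbers no shared litter or day, so the samples were not treated as paired. Xist was high in both pools numbered 1. With the replicate number as a block, 522 genes were higher and 477 lower, and 2 members higher (Dnajb11 at an adjusted p of 0.058) and 1 lower. In this balanced design a block leaves every log2 fold change as it is. Signal over background was not used here, and the 18 members with a mean under 6 are the least certain.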

Other observations

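Array Control 3 was checked for genes in which it exceeded all other pools. After Hspa1b (excess 2.78) came Timm8a2 (2.48) and Spag17 (2.46), both dim elsewhere, and then Hspa1a (2.42). Dbp, a clock-controlled transcription factor, was the 10th, at 6.70, 7.31 and 7.09 in dKO against 7.40, 7.51 and 9.08 in Control. These genes were singled out after their values were seen.

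Of the 52 members with several probe sets, 19 had probe sets of both signs, and among probe sets with a mean of at least 6 this held for 11 of 39 members.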
